A study of Mus musculus with 6 samples.

Results

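The genes described here encode the phagocyte NADPH oxidase, the enzyme complex with which monocytes make superoxide, and the enzymes that remove superoxide and hydrogen peroxide. There were 9 members of the 54232 genes in the deposited tables. They were chosen by name and not by their values, though with earlier results of these data known. *Cybb*, *Cyba*, *Ncf1*, *Ncf4*, and *Rac2* encode 5 subunits of the oxidase, and *Sod1*, *Sod2*, *Gpx1*, and *Cat* encode 4 antioxidant enzymes. Each was read from a comparison of WT with *Ifnar1*-/- monocytes fitted across all expressed genes.

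Monocytes came from the CNS of mice at the peak of experimental autoimmune encephalomyelitis (EAE), a model of multiple sclerosis induced by immunization with myelin antigen. The mice were mixed BM chimeras. Lethally irradiated GFP+ recipients had been given WT (CD45.1) and *Ifnar1*-/- (CD45.2) BM in equal amounts, and all received 30000 IU of rIFN-β every day. GFP- CD45+CD11b+Ly6ChiLy6G- cells of each donor type were sorted, and there were 3 RNA-seq libraries of WT and 3 of *Ifnar1*-/- monocytes. IFNAR1 is a chain of the receptor for all type I IFNs, so the comparison asked how these genes differ between monocytes with and without that receptor in the same treated hosts. No library came from PBS-treated mice, and the age and sex of the mice were not given in the labels. Genotype and donor (the CD45 allele and any linked DNA) cannot be told apart. The labels do not say whether the 3 libraries of a group came from separate mice. A figure legend of the study counts as many recipient mice as libraries per group, without saying which mouse gave which library. Pairing of WT and *Ifnar1*-/- libraries by mouse is therefore possible but not stated, and the main fit treated them as unpaired. For these reasons p-values measure only the spread between these samples. In bulk RNA, fewer cells of a type and less RNA per cell cannot be told apart.

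The oxidase is assembled on demand. In the membrane, gp91phox (*Cybb*) and p22phox (*Cyba*) form the flavocytochrome that passes electrons from NADPH to oxygen. On activation, cytosolic subunits, among them p47phox (*Ncf1*) and p40phox (*Ncf4*), join it together with a Rac GTPase, RAC1 or RAC2. Superoxide dismutases convert superoxide into hydrogen peroxide, in the cytosol (SOD1) and in mitochondria (SOD2), and glutathione peroxidase 1 and catalase reduce the peroxide to water. Oxidants released by infiltrating monocytes and by microglia are known for damaging myelin and axons in EAE.

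In these monocytes the transcripts of the oxidase were abundant and none of the 9 genes differed between the genotypes past the thresholds. A gene counted as called when the edgeR quasi-likelihood test gave it both a Benjamini-Hochberg adjusted p, over the 11254 genes tested, no larger than 0.05 and a difference no smaller than 1.5-fold. All 9 members were tested and 0 were called, where 2.13% of all genes tested were called (1.67% higher and 0.462% lower in WT). None of the 9 had an unadjusted p under 0.05 in this main fit either, against 17.8% of all genes. *Rac2* or *Sod1* did in some alternatives. DESeq2 and limma-voom also called 0. For 8 of the 9, all but *Sod1*, the 95% interval of the difference lay within 1.5-fold in either direction, which held for 30.7% of all genes tested. That number of members depended on the libraries kept and on the fit. It was 4 without WT library 2, 5 without any 1 of the *Ifnar1*-/- libraries, and 1 without both libraries numbered 3 or in deposited TPM. Over all 6 libraries, edgeR gave 7 under GC and length offsets and 6 under the effective length offset. Blocking on replicate gave 7 in edgeR and 6 in DESeq2. RLE normalization, limma-voom, and DESeq2 without blocking gave 8. The standard errors of the members' log2 fold changes ran from 0.13 to 0.20, with a median of 0.21 over all genes tested. Counts of the members ranged from 163 to 9216 per library.

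Because type I IFN signaling acts through promoter sequences, the promoters of the members are shown where they hold the letters of an IFN-stimulated response element (ISRE), a promoter element of many IFN-induced genes. The search was for GAAANNGAAA on either strand (TTTCNNTTTC when read on the gene's own strand) in the 250 bases before each RefSeq start (GRCm38.p6). A promoter was found for 7 of the 9 members, and those of *Ncf4* and *Rac2* were not. *Cybb* held 3 matches, *Ncf1* held 1, and *Cyba*, *Sod1*, *Sod2*, *Gpx1*, and *Cat* held none. The windows of *Cybb* (chrX:9469325-9469574, minus strand) and *Ncf1* (chr5:134229626-134229875, minus strand) read as follows, 5′ to 3′ on the gene's strand and ending at the base before the start, with the matches in capitals.
Cybb: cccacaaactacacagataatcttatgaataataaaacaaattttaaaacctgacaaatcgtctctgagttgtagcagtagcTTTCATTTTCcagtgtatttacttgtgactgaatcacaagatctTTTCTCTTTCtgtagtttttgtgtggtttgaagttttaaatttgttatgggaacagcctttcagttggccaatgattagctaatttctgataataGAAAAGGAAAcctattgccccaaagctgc
Ncf1: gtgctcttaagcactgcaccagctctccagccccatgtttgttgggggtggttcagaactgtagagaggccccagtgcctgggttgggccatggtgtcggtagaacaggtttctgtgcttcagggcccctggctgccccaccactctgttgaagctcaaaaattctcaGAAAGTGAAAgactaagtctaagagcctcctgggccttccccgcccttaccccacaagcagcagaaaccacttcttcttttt

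In the *Cybb* window the matches began 168, 124, and 29 bases before the start, the first 2 on the opposite strand and the last on the strand of the gene. The single match of *Ncf1* began 82 bases before its start. These letters occurred at least once in 978 of 32851 RefSeq promoters (2.98%), and *Cybb* was one of only 4 promoters (0.0122%) with 3 or more. Among promoters of genes called higher in WT, 42 of 187 (22.5%) held them, and 3.04% of the promoters of all genes tested did. A match is a description of the letters and not evidence of binding. The RefSeq starts of *Cybb*, *Sod2*, and *Gpx1* lie inside the genes as GENCODE M21 annotates them, since the annotated genes begin further upstream. Those of *Sod1* and *Cat* do so by a few bases only. Matches to other motifs on either strand were fewer. The IFN-gamma activated site TTCNNNGAA was found in *Ncf1* and *Sod2* (7.02% of all promoters), with that of *Ncf1* overlapping its ISRE match, and the antioxidant response element TGACNNNGC in *Sod1* (10.2%).

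*Cybb* (ENSMUSG00000015340.10, GRCm38 chromosome X, 9435252 to 9487771, minus strand) encodes the catalytic subunit. It had 1311, 1228, and 1565 normalized CPM (the count divided by the library size after TMM scaling) in WT libraries 1, 2, and 3, and 1104, 1387, and 1523 normalized CPM in *Ifnar1*-/- libraries 1, 2, and 3. The groups overlapped, library 3 was the highest in both, and *Ifnar1*-/- library 1 lay below every WT library. On the log2 scale the fold change of WT over *Ifnar1*-/- was 0.032 (adjusted p = 0.952, SE 0.18, edgeR quasi-likelihood test), and its 95% interval of fold change ran from 0.772 to 1.36. The bound of 1.36-fold belongs to the main fit only, and whether the ISRE matches bear on the level of *Cybb* was not tested. Over 11242 genes, log2 fold changes of the main fit correlated with GC content (Spearman 0.37) and with transcript length (0.19). *Cybb* had the lowest GC content of the members, at 43.2%. With offsets for GC content and length the log2 fold change of *Cybb* was 0.21 (SE 0.18, edgeR). Adding the replicate number as a block to those offsets gave 0.23 (SE 0.17).

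**Figure D1:**
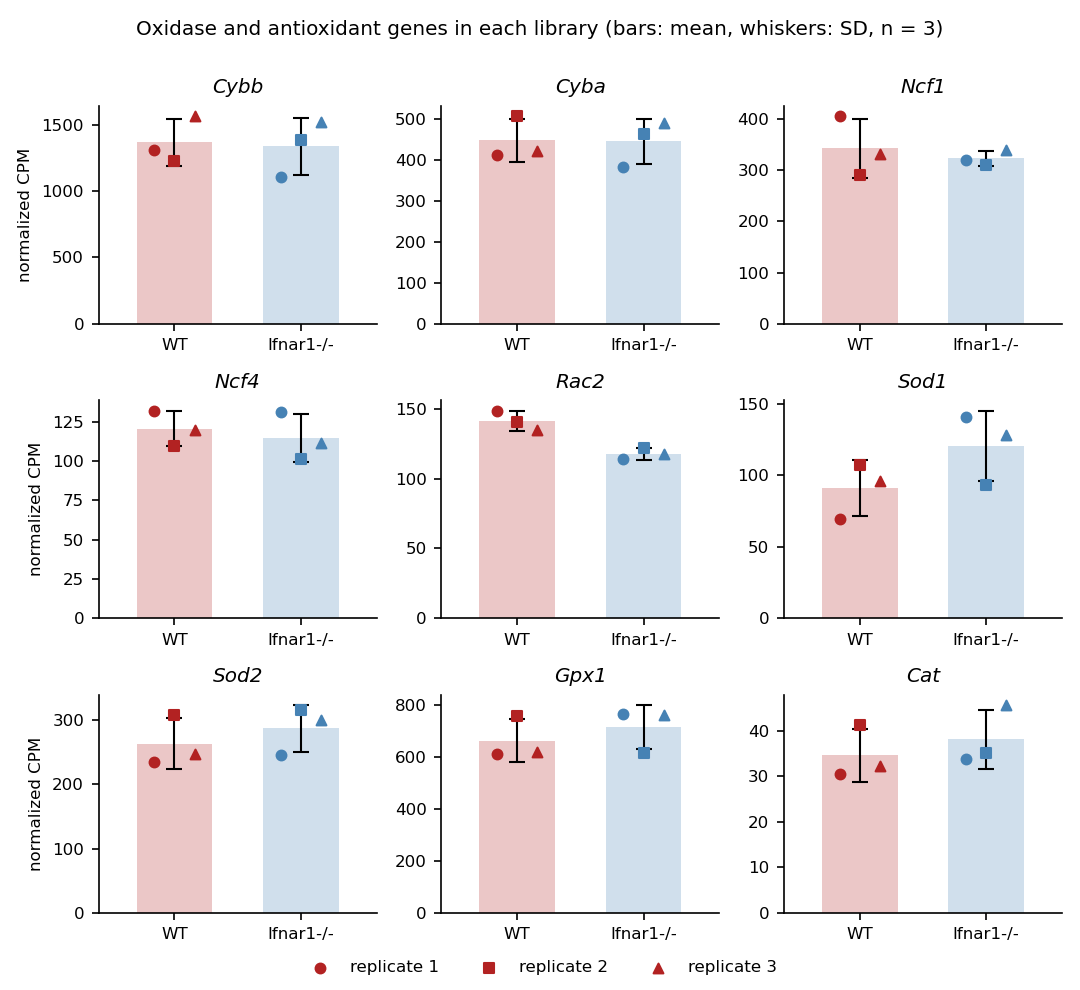
Normalized CPM (vertical axis, from 0) of the 9 genes in each library, with WT in red and *Ifnar1*-/- in blue. Bars are group means, whiskers are SD (n = 3), and marker shapes give the replicate number. The groups overlap for every gene but *Rac2*, whose lowest WT value is 135 and highest *Ifnar1*-/- value is 122.

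*Cyba* (ENSMUSG00000006519.11, chromosome 8, 122424776 to 122432930, minus strand) encodes the partner without which gp91phox is unstable. Its values were 413, 506, and 422 normalized CPM in WT and 383, 463, and 489 normalized CPM in *Ifnar1*-/- libraries. Values of both groups were interspersed, with the highest in WT library 2. The fold change was 0.0069 in log2 units (adjusted p = 0.989, SE 0.16, edgeR), with a 95% interval of fold change from 0.784 to 1.29. The proportion of the 2 chains of the flavocytochrome per length also overlapped between groups, with 2.64 ± 0.62 *Cyba* transcripts per *Cybb* transcript in WT and 2.58 ± 0.13 in *Ifnar1*-/- monocytes (SD, n = 3). *Gm20388*, annotated on the opposite strand over *Cyba*, had 0 counts in all 6 libraries.

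Among the cytosolic subunits, *Ncf1* (ENSMUSG00000015950.13, chromosome 5, 134220053 to 134229625, minus strand) encodes p47phox, the organizer whose phosphorylation starts assembly. It had 406, 289.9, and 332 normalized CPM in WT and 319.8, 311, and 339 normalized CPM in *Ifnar1*-/- libraries. WT library 1 was the highest and WT library 2 the lowest of the 6, so the *Ifnar1*-/- values lay inside the WT range. WT exceeded *Ifnar1*-/- by a log2 fold change of 0.084 (adjusted p = 0.831, SE 0.16, edgeR, 95% interval of fold change 0.828 to 1.36), and its sign turned to -0.063 when offsets for GC content and length were fitted.

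*Ncf4* (ENSMUSG00000071715.12, chromosome 15, 78244801 to 78262580, plus strand) encodes p40phox, which binds phosphatidylinositol 3-phosphate on phagosomes. Its values were 132, 109.5, and 119.8 normalized CPM in WT and 131, 101, and 112 normalized CPM in *Ifnar1*-/- libraries. In each group library 1 was the highest and library 2 the lowest, and the groups overlapped. Its fold change was 0.070 in log2 units (adjusted p = 0.854, SE 0.15, edgeR), with a 95% interval of fold change from 0.833 to 1.32.

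*Rac2* (ENSMUSG00000033220.7, chromosome 15, 78559167 to 78572783, minus strand) was the only member whose groups did not overlap. It had 149, 141, and 135 normalized CPM in WT and 114, 122, and 118 normalized CPM in *Ifnar1*-/- libraries. Each WT library was above each *Ifnar1*-/- library, as for 11.1% of all genes tested, and groups that did not overlap in one direction or the other were found for 23.4%. The log2 fold change was 0.27 (adjusted p = 0.312, SE 0.13, edgeR; 95% interval of fold change 0.985 to 1.47), and an exact permutation test, two-sided, gave p = 0.1, which is the lowest that 3 against 3 allows.

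The size of the *Rac2* difference depended on whether it was measured as counts or per length. RSEM estimates for each library a mean length over the annotated transcripts of a gene, and for *Rac2* these are 3038, 459, and 254 bases long in GENCODE M21. The mean length was 1046, 1112, and 963 bases in WT and 1196, 1161, and 1314 bases in *Ifnar1*-/- libraries. All WT lengths were thus below all *Ifnar1*-/- lengths, and dividing by them widened the difference. In TPM over protein-coding genes, a level per length, *Rac2* was at 341 ± 31.4 in WT and 224.5 ± 17.6 in *Ifnar1*-/- monocytes (SD, n = 3). The log2 difference on the log2(TPM + 1) scale was then 0.60 (adjusted p = 0.0838 from limma), and with the effective length as an offset in edgeR it was 0.58 (adjusted p = 0.112). In deposited TPM the groups overlapped. With offsets for GC content and length the log2 fold change was 0.14, and on no scale did *Rac2* pass the threshold. The share of reads that RSEM gave to each transcript was not analysed here.

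**Figure D2:**
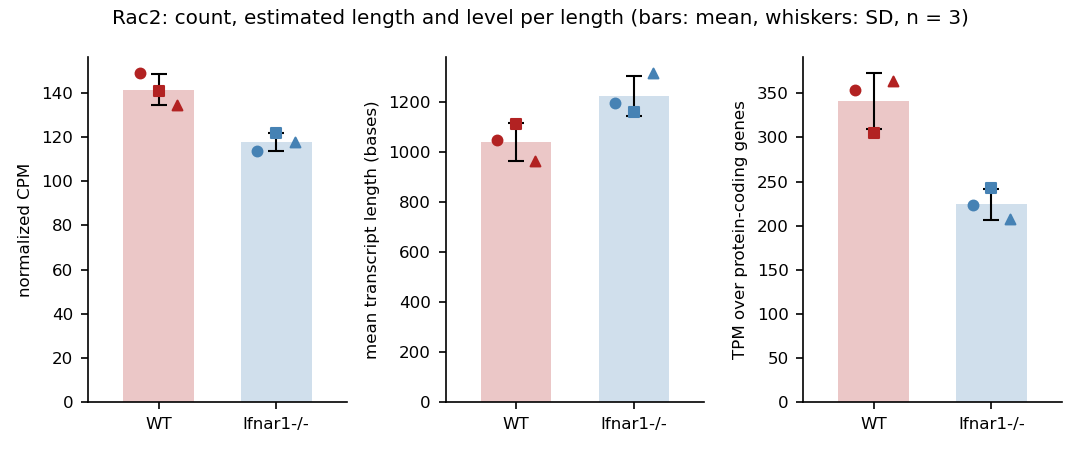
*Rac2* in each library as normalized CPM (left), as the mean transcript length estimated by RSEM in bases (middle), and as TPM over protein-coding genes (right), all axes from 0. Bars are means, whiskers are SD (n = 3), and circles, squares, and triangles are replicates 1, 2, and 3. WT (red) is above *Ifnar1*-/- (blue) in normalized CPM and in TPM, and below it in length.

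Another GTPase and a chaperone of the complex, which are not among the 9, are given beside them. *Rac1*, the ubiquitous relative of *Rac2*, had 428, 489, and 383 normalized CPM in WT and 447, 433, and 419 normalized CPM in *Ifnar1*-/- libraries, with a fold change of 0.00047 in log2 units (adjusted p = 0.999, SE 0.15, edgeR). All *Ifnar1*-/- values of *Rac1* lay inside the WT range.

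*Cybc1*, which encodes a chaperone needed for the gp91phox and p22phox heterodimer, stood furthest from equality in counts among the oxidase genes named, though per length *Rac2* stood further. It had 76.4, 82.9, and 72.5 normalized CPM in WT and 59.6, 61.5, and 60.5 normalized CPM in *Ifnar1*-/- libraries. All WT values were above all *Ifnar1*-/- values, as for 11.1% of all genes tested. Its fold change was 0.35 in log2 units (unadjusted p = 0.0205, adjusted p = 0.191, SE 0.13, edgeR), so the difference did not pass the threshold. An unadjusted p under 0.05 was found for 17.8% of all genes tested. *Hexdc* overlaps *Cybc1* on the opposite strand, and the strand setting of the counting was not given in the sources used here.

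The 4 antioxidant enzymes all had log2 fold changes below 0, while the 5 oxidase subunits all had values above 0, and these signs did not hold in every alternative for *Cybb*, *Cyba*, *Ncf1*, *Gpx1*, and *Cat*. Without *Ifnar1*-/- library 1 only 3 oxidase members were above 0, and without both libraries numbered 3 only 2 antioxidant members were below 0. With GC and length offsets *Ncf1* was below 0. Over all genes tested 51.8% were below 0, and the median log2 fold change was -0.014, next to a median of 0.0069 over the 9 members. No member was called, so the directions are given as a description only.

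*Sod1* (ENSMUSG00000022982.10, chromosome 16, 90220754 to 90226329, plus strand) encodes the copper-zinc dismutase of the cytosol and varied most of the 9. It had 69.2, 107.5, and 95.9 normalized CPM in WT and 141, 93.0, and 128 normalized CPM in *Ifnar1*-/- libraries. The lowest value was in WT library 1 and the highest in *Ifnar1*-/- library 1, while *Ifnar1*-/- library 2 lay below 2 of the WT libraries. The log2 fold change was -0.41 (adjusted p = 0.320, SE 0.20, edgeR), with a 95% interval of fold change from 0.550 to 1.03. This is the only member whose interval reached beyond 1.5-fold, and it includes equality as well as a lower level in WT. Without WT library 1 the log2 fold change was -0.24, and without *Ifnar1*-/- library 2 it was -0.55 (adjusted p = 0.206, edgeR). *Sod1* lies 1.26 Mb from *Ifnar1* on chromosome 16, so for this gene the loss of the receptor and donor DNA linked to the targeted allele cannot be told apart. *Scaf4* overlaps it on the opposite strand and had 52.0 ± 8.09 normalized CPM in WT and 44.0 ± 3.34 in *Ifnar1*-/- monocytes (SD, n = 3).

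*Sod2* (ENSMUSG00000006818.4, chromosome 17, 13006846 to 13040063, plus strand) encodes the manganese dismutase of mitochondria. It had 235.5, 309, and 247 normalized CPM in WT and 246, 315, and 299.8 normalized CPM in *Ifnar1*-/- libraries. In both groups library 2 was the highest and library 1 the lowest, and the groups overlapped. The difference was -0.12 in log2 units (adjusted p = 0.740, SE 0.17, edgeR), with a 95% interval of fold change from 0.712 to 1.18.

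*Gpx1* (ENSMUSG00000063856.7, chromosome 9, 108338903 to 108340343, plus strand) encodes the selenoenzyme that spends glutathione to reduce hydrogen peroxide. Its values were 611, 757, and 619 normalized CPM in WT and 764, 615, and 761 normalized CPM in *Ifnar1*-/- libraries. The groups overlapped, with 2 WT libraries and 1 *Ifnar1*-/- library low and the others high. On the log2 scale the difference was -0.11 (adjusted p = 0.780, SE 0.17, edgeR), with a 95% interval of fold change from 0.719 to 1.197.

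*Cat* (ENSMUSG00000027187.10, chromosome 2, 103453849 to 103485160, minus strand) encodes the peroxisomal catalase and was the least abundant member. It had 30.5, 41.2, and 32.2 normalized CPM in WT and 33.7, 35.1, and 45.6 normalized CPM in *Ifnar1*-/- libraries. The groups overlapped, and the highest library was *Ifnar1*-/- library 3. WT differed from *Ifnar1*-/- by -0.14 in log2 units (adjusted p = 0.719, SE 0.18, edgeR), with a 95% interval of fold change from 0.691 to 1.19.

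**Figure D3:**
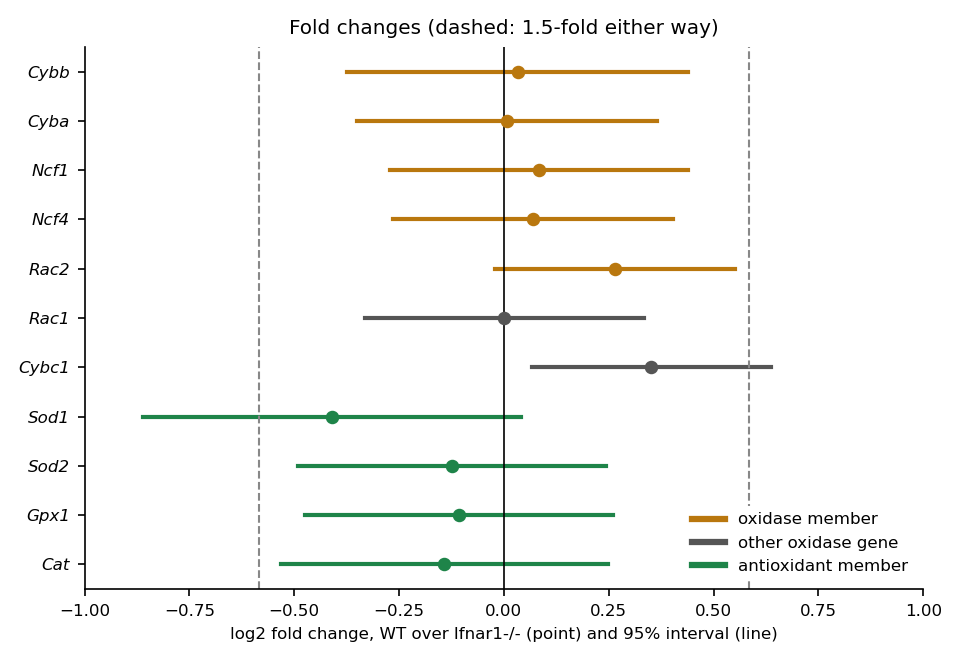
Log2 fold change of WT over *Ifnar1*-/- (points) with the 95% interval (lines) for the 5 oxidase members, 2 other oxidase genes (*Rac1* and *Cybc1*), and the 4 antioxidant members, on a horizontal axis in log2 units. Dashed lines mark 1.5-fold either way. Intervals of all members but *Sod1* lie between the dashed lines, and *Cybc1*, which is no member, reaches past the upper one.

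Compared per length, the 9 genes spanned a wide range of levels, and their order is a description. Deposited TPM were rescaled over protein-coding genes, since small RNA genes took 52.4% of all TPM in WT library 1 and from 27.4% to 35.1% in the other libraries. *Cyba* was at 1681 ± 168 in WT and 1581 ± 195 in *Ifnar1*-/- monocytes (TPM over protein-coding genes, SD, n = 3), and *Gpx1* at 1571 ± 170 and 1655 ± 245. By their mean over the 6 libraries these 2 ranked 81 and 84 among 10055 tested protein-coding genes, and they were not separated from each other, with *Cyba* higher in 4 of 6 libraries. *Cybb* followed at 652 ± 107 and 615 ± 101 (rank 252). Every library was lower for *Cybb* than the lowest for *Gpx1*, by 2.55-fold in the means.

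In the middle of the order were *Sod1* (350 ± 82.6 in WT and 438 ± 89.4 in *Ifnar1*-/- monocytes, TPM over protein-coding genes), *Ncf1* (353 ± 43.4 and 325 ± 21.4), *Rac2*, and *Ncf4* (244 ± 22.5 and 220.5 ± 40.7). Neighbours among these 4 overlapped, so their order is not fixed by these data. *Sod2* was lower than *Ncf4* in every library, at 147 ± 19.6 and 157 ± 18.3. *Cat*, at 40.1 ± 4.92 and 44.4 ± 11.9, was 3.60-fold below *Sod2* and ranked 3589. *Cyba* and *Gpx1* transcripts were thus among the more abundant of the cell, and *Cat* transcripts were far below them.

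**Figure D4:**
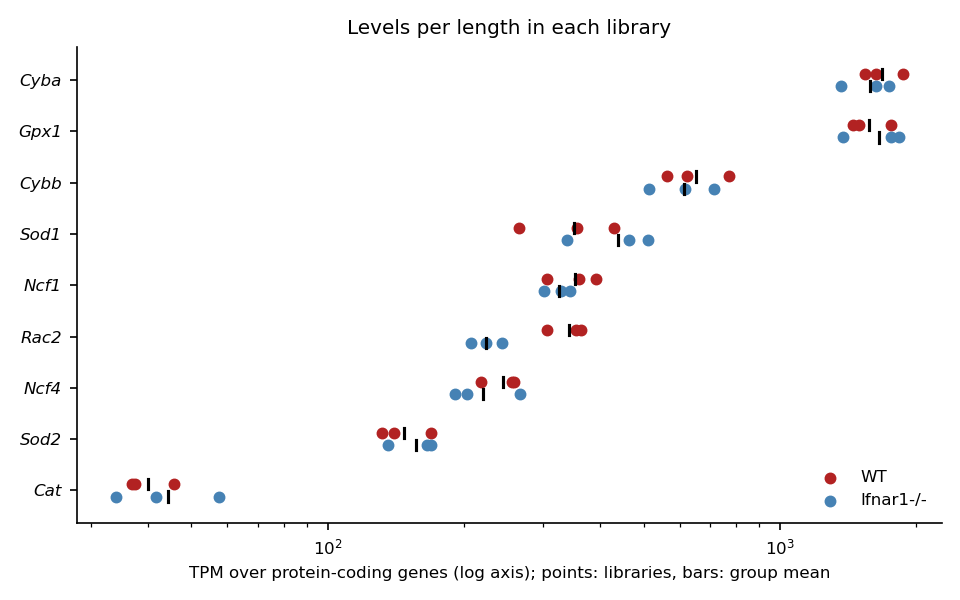
TPM over protein-coding genes of the 9 members in each library, on a horizontal log axis, with WT in red, *Ifnar1*-/- in blue, and a bar at each group mean. The members run from *Cyba* and *Gpx1* at the top to *Cat* at the bottom, and the groups are apart for *Rac2* only.

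Within a library, ratios between partners are free of the scaling of that library. Of 4 ratios computed, those of *Cyba* to *Cybb*, *Sod1* to *Sod2*, and *Gpx1* to *Cat* overlapped between groups. *Gpx1* to *Cat*, the pair that shares hydrogen peroxide as substrate, was at 39.3 ± 1.19 in WT and 38.8 ± 11.1 in *Ifnar1*-/- monocytes (SD, n = 3). The ratio of *Rac2* to *Rac1* was 0.440, 0.337, and 0.487 in WT and 0.282, 0.308, and 0.278 in *Ifnar1*-/- libraries. It was higher in each WT library (exact two-sided permutation test, p = 0.1, which no result of this design can go below, and 0.4 after Benjamini-Hochberg adjustment over the 4 ratios), and it carries the difference in estimated length described for *Rac2*.

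By the root mean square difference of profiles over the 6 libraries, centred on each gene's mean, the genes nearest to *Cybb* among 7631 compared were *Actr8* (0.0485 on the log2 scale), *Ranbp9* (0.0506), and *Ppp3ca* (0.0549). *Cyba* was at 0.182 and ranked 839. *Sod1* ranked last of the members, at 0.412.

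The wider redox system was read from lists that held 68 other genes, of which 55 were tested. None of the 55 passed both thresholds in either direction, 10 had an unadjusted p under 0.05 (17.8% of all genes did), limma-voom called 0, and DESeq2 called 1, *Prex1*. Their median log2 fold change was -0.098. All WT libraries were above all *Ifnar1*-/- libraries for 6 genes (11.1% of all genes tested) and below for 9 (12.2%). The 95% interval lay within 1.5-fold for 20 of the 55.

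Of 18 activators and regulators of the oxidase, 17 were tested and 0 called, with a median log2 fold change of -0.066. *Prex1*, which encodes an exchange factor that activates RAC2, had the highest value of the redox lists and is named after its values were seen. It had 450.5, 313, and 375 normalized CPM in WT and 182, 292, and 237 normalized CPM in *Ifnar1*-/- libraries. The groups did not overlap, as for 23.4% of all genes tested. For *Prex1* the fold change was 0.68 in log2 units (adjusted p = 0.128, SE 0.20, edgeR). Among the subunit homologues, *Nox1*, *Nox3*, *Nox4*, *Noxa1*, *Duox1*, and *Duox2* had 0 counts in all libraries.

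In the glutathione list 16 of 19 genes were tested, 0 were called, and the median log2 fold change was -0.24. *Glrx2*, a mitochondrial glutaredoxin, had the smallest adjusted p of all redox genes and is also named after its values were seen. It had 7.12, 9.35, and 7.11 normalized CPM in WT and 16.6, 15.1, and 11.4 normalized CPM in *Ifnar1*-/- libraries (log2 fold change -0.88, SE 0.23, adjusted p = 0.0842, edgeR). Its groups did not overlap, as for 23.4% of all genes tested. The 14 peroxiredoxin and thioredoxin genes were all tested, with 0 called and a median of -0.11.

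The NRF2 list, the regulators and targets of the main antioxidant transcription factor, had 6 of 7 genes tested, 0 called, and a median log2 fold change of 0.35. *Keap1*, which encodes the repressor of NRF2, had a log2 fold change of 0.59 (adjusted p = 0.134, SE 0.18, edgeR), and *Hmox1*, which encodes the inducible heme oxygenase, had 0.45 (adjusted p = 0.251, SE 0.19, edgeR). Both had no overlap between groups, as for 23.4% of all genes tested, and did not pass the threshold. *Sqstm1* was at 0.42, also without overlap, *Mafg* at 0.27, *Nfe2l2*, the gene of NRF2 itself, at 0.029, and *Bach1* at -0.14. All 6 are named after their values were seen. *Ccs*, the copper chaperone of SOD1, was the single gene tested in the dismutase list, at a log2 fold change of 0.25 (adjusted p = 0.656, edgeR).

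**Figure D5:**
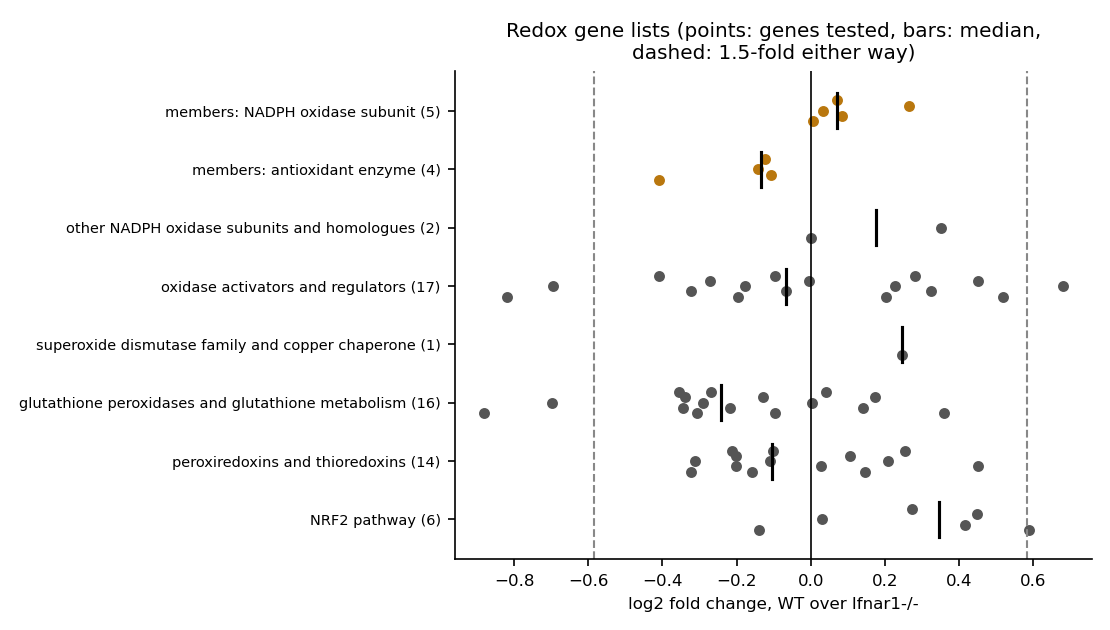
Log2 fold change of WT over *Ifnar1*-/- (horizontal axis) for each tested gene of the member groups (orange) and of the redox lists (grey), with the number tested in brackets and a bar at each median. Dashed lines mark 1.5-fold either way, and no point was called.

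Total expected counts ranged from 4531782 to 7321380 per library, with 12.3% to 22.7% of them in mitochondrial ribosomal RNA. The targeted gene, *Ifnar1*, had 153, 126, and 111 normalized CPM in WT and 110, 101.5, and 109 normalized CPM in *Ifnar1*-/- libraries, and since the exons that the reads came from cannot be seen in gene counts, this does not check the labels. All 8 monocyte markers were tested, and summed to 7812 to 9622 normalized CPM in WT and 8276 to 9559 in *Ifnar1*-/- libraries. *Ly6c2*, part of the antigen of the sort gate, was the only one called (log2 fold change 1.40, adjusted p = 0.00957, edgeR, higher in WT). *Ccr2*, the chemokine receptor of inflammatory monocytes, had 648, 694, and 587 normalized CPM in WT and 1269, 794, and 905 in *Ifnar1*-/- libraries. The *Ccr2* groups did not overlap, as for 23.4% of all genes tested, and differed in the opposite direction (log2 fold change -0.62, adjusted p = 0.143, edgeR). This gene is named after its values were seen. The part of these markers in the members' values was not tested. Neutrophils also express the oxidase, and 9 neutrophil markers summed to 281, 508, and 1540 normalized CPM in WT and 574, 567.5, and 1530 in *Ifnar1*-/- libraries. They were highest in library 3 of both groups, as was *Cybb*, while the defining *Ly6g* had 0 to 4 counts per library. Their part in the *Cybb* values was not tested. T cell markers summed to 21.9 to 52.5 normalized CPM in WT and 8.13 to 22.5 in *Ifnar1*-/- libraries, microglia markers to 255 to 329 and 295 to 374, and neural markers to 45.1 to 61.5 and 44.6 to 51.1. B cell and erythroid markers summed to under 5 normalized CPM in every library, with *Pax5* and *Alas2* at 0.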

How the data were processed

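RNA of sorted CNS monocytes was measured in 6 libraries, grouped by the genotype in the deposited labels (3 WT, 3 *Ifnar1*-/-). The submitters' processing notes name STAR 2.6.0c, RSEM 1.2.31, and GRCm38. The labels name a stranded low-input total RNA kit and the study's methods another stranded kit, and the strand setting and annotation release used for counting were not given in the sources used here. The authors' expected counts are RSEM estimates per gene, not normalized, and were rounded to whole numbers. The deposited TPM are scaled by the authors to transcript length and to 1 total per library, and the deposited FPKM were not used. Gene names and positions came from GENCODE M21 (54165 of 54232 identifiers matched, 52566 with the same version), and promoter sequences from RefSeq on GRCm38.p6.

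WT was compared with *Ifnar1*-/- using edgeR 4.0.16 in R 4.3.3 (TMM, filterByExpr with a minimum count of 10, quasi-likelihood test, Benjamini-Hochberg adjustment, adjusted p of at most 0.05, and fold change of at least 1.5). TPM were tested with limma 3.58.1 on the log2(TPM + 1) scale. The procedure was also run on simulated counts with the same dispersion for every gene, independent libraries, and no trend with GC content or length. That run therefore does not check the intervals for the real libraries. Alternatives were DESeq2 1.42.0, limma-voom, RLE normalization, other filters, removal of mitochondrial and ribosomal RNA genes, offsets for length and GC content, TPM with pseudocounts of 1 and 0.1, a replicate block, and leaving out each library. Leaving out both libraries numbered 3, and TPM over protein-coding genes, were added after seeing the data.

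The members and gene lists were chosen with earlier results of these data known. Genes named were the 9 members, *Rac1*, *Cybc1*, *Ifnar1*, the 3 genes nearest to *Cybb*, any listed redox gene past both thresholds, and a few that the text says were named after their values were seen. Intervals of 95% for fold changes were derived from the edgeR fit, which does not return them itself. The SE was taken as the size of the log2 fold change divided by the square root of the quasi-likelihood F. It was then multiplied by a t quantile on the total degrees of freedom. The authors' own comparisons were not used. A few listed genes are not reported here and were left out of the counts over lists.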

Additional observations from a re-analysis of the deposited data

How the results depend on the processing

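The number of members called was 0 in all 23 alternatives, with a smallest adjusted p of 0.0838 (*Rac2*, TPM over protein-coding genes). *Ncf4*, *Rac2*, *Sod1*, *Sod2*, and *Cybc1* kept their direction in all of them. *Rac2* had an unadjusted p under 0.05 with the effective length as offset (edgeR). It also did in TPM with no filter and in TPM over protein-coding genes (limma). *Sod1* did in edgeR with no filter on low counts, with GC and length offsets, without WT library 2, and without *Ifnar1*-/- library 2. Over all genes, the 240 calls became 419 with DESeq2, 872 with no filter on low counts, 126, 111, and 74 with TPM (pseudocount 1, pseudocount 0.1, and no filter), 150 with TPM over protein-coding genes, 95 without both libraries numbered 3, and 119 to 245 when 1 library was left out. Calls higher in WT were 78.3% of the total, and 91.1% with the effective length as offset. Of the 55 redox genes, DESeq2 called 1 and the test with no filter on low counts 4 (*Glrx2*, *Prex1*, *S100a8*, *S100a9*).

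Log2 fold changes near 0 changed sign. With GC and length offsets *Ncf1* was at -0.063 (-0.068 with the block). *Rac1* was at -0.0057 with limma-voom, -0.0034 with no filter, and -0.0062 with the block. Without both libraries numbered 3, *Gpx1* was at 0.00052 and *Cat* at 0.065. *Ifnar1* was at -0.28 with the effective length as offset, -0.29, -0.30, and -0.29 in TPM (pseudocount 1, pseudocount 0.1, and no filter), and -0.26 in TPM over protein-coding genes. Leaving out 1 library gave -0.071 to 0.15 for *Cybb*, -0.079 to 0.096 for *Cyba*, -0.049 to 0.20 for *Ncf1*, -0.27 to 0.022 for *Cat*, and -0.082 to 0.10 for *Rac1*. The cause was not tested.

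The replicate numbers were tried as a block. Deviations of same-numbered libraries correlated across genes by 0.0906, 0.0278, and 0.275, and differently numbered ones by -0.196 to 0.092. Not every same-numbered pair was above 0.1, and WT library 1 correlated slightly more with *Ifnar1*-/- library 2 than with its own number, so whether the libraries are paired was not settled. The block gave 220 calls over all genes (264 with DESeq2) and 0 members. The 8 of 9 member intervals within 1.5-fold became 4 to 8 when 1 library was left out.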
